A study of Mus musculus with 8 samples.

Results

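Expression of 8 complement genes was measured across mouse bone marrow stromal populations. The genes were C1qa, C1qb, C1qc, C1ra, C4b, C3, Cfd and Serping1, a set chosen by name and found by symbol among the 49315 genes counted. All cells came from wild-type mice, C57BL/6J and aged 6 weeks per the labels (C57BL/6JJcl in the methods), and no group was treated. The study took single-cell profiles of marrow stroma, divided them into 7 clusters, and then sorted a population for each cluster from the fraction negative for CD31, CD45 and Ter119. Each of the 7 sorted populations gave 1 RNA-seq library, as did the unsorted input, and there were no replicates. By the gating plots of the study, cluster 1 was Sca-1 and CD39 positive, cluster 2 was negative for Ly-6C, CD24 and CD39, cluster 3 was Ly-6C and CD24 positive, cluster 4 was CD54 positive, cluster 5 was CD54 positive and CD121b negative, cluster 6 was CD24 positive and negative for Sca-1 and CD39, and cluster 7 was Sca-1 positive and CD54 negative. A gated population can also hold cells other than those of its cluster. The stromal markers Pdgfra, Pdgfrb, Lepr, Cxcl12, Col1a1, Col1a2 and Ly6a all had RPKM above 2 in all 8 libraries, the unsorted input included, so that their presence does not tell the sorted libraries from the input. Pdgfra had RPKM of 4.37, 7.51 and 7.44 in clusters 2, 5 and 6, below the 14.1 of the input, and of 18.0 to 28.1 in clusters 1, 3, 4 and 7. When the total counts were adjusted by edgeR's TMM factors, Pdgfra was at 10.2 in cluster 5 and 9.59 in cluster 6, above the 8.84 of the input, and only cluster 2, at 4.39, was below it. Blood-cell markers were also present in every library. Ptprc, which encodes the CD45 that was used to remove blood cells, had RPKM between 1.69 in cluster 3 and 9.26 in cluster 7, and 13.5 in the input, but with TMM factors cluster 7 was at 8.94 and the input at 8.43.

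Complement is a cascade of plasma proteins that tags targets for uptake and can open pores in membranes. In the classical pathway C1q binds its target, the attached proteases C1r and C1s cleave C4 and C2, and the product cleaves C3. The alternative pathway reaches C3 through factor B, which factor D activates, and inhibitors hold both routes in check. Liver makes most of the circulating C3 and C4, macrophages are a main source of C1q, and fat is the best known source of factor D.

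RPKM, reads relative to exon length and to the total count of the library, was used as the level of each gene, so that genes of different length can be compared. The counts behind it summed to between 12833648 in cluster 5 and 33238133 in cluster 7, and to 20162876 in the input. All intervals are 95% exact intervals of the counts, which leave out the spread between sorts and between PCR copies of a molecule, so that they cover counting error alone. As an alternative scaling, the total count was multiplied by edgeR's TMM factor, which rests on the bulk of genes and not on a few abundant ones. In bulk RNA, more cells of a type and more RNA per cell cannot be told apart.

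The 8 genes did not share 1 pattern. C1ra, C4b, C3 and Serping1 were highest in cluster 4 and next highest in cluster 7, the C1q chains were highest in cluster 7 and lowest or next to lowest in cluster 4, and Cfd was high in cluster 3 alone. All 8 passed RPKM above 2 in at least 1 sorted library. All 8 also had a highest over lowest RPKM + 1 above 2 across the 7 sorted libraries, against 70.6% of the 12360 genes that passed the same filter, so that the count itself sets them little apart. The median range was 3.35 on the log2(RPKM + 1) scale over the 8 genes and 1.26 over all 12360 genes. Of the 21 pairs of sorted libraries, a median of 12 differed more than 2-fold in RPKM + 1 over the 8 genes, and a median of 2 over all genes tested. Together the 8 genes took up 0.284% of all counts in cluster 4 (0.282% to 0.285%, Wilson interval) and 0.208% in cluster 7, but 0.0229% in cluster 2 and 0.0221% in cluster 6.

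**Figure D1:**
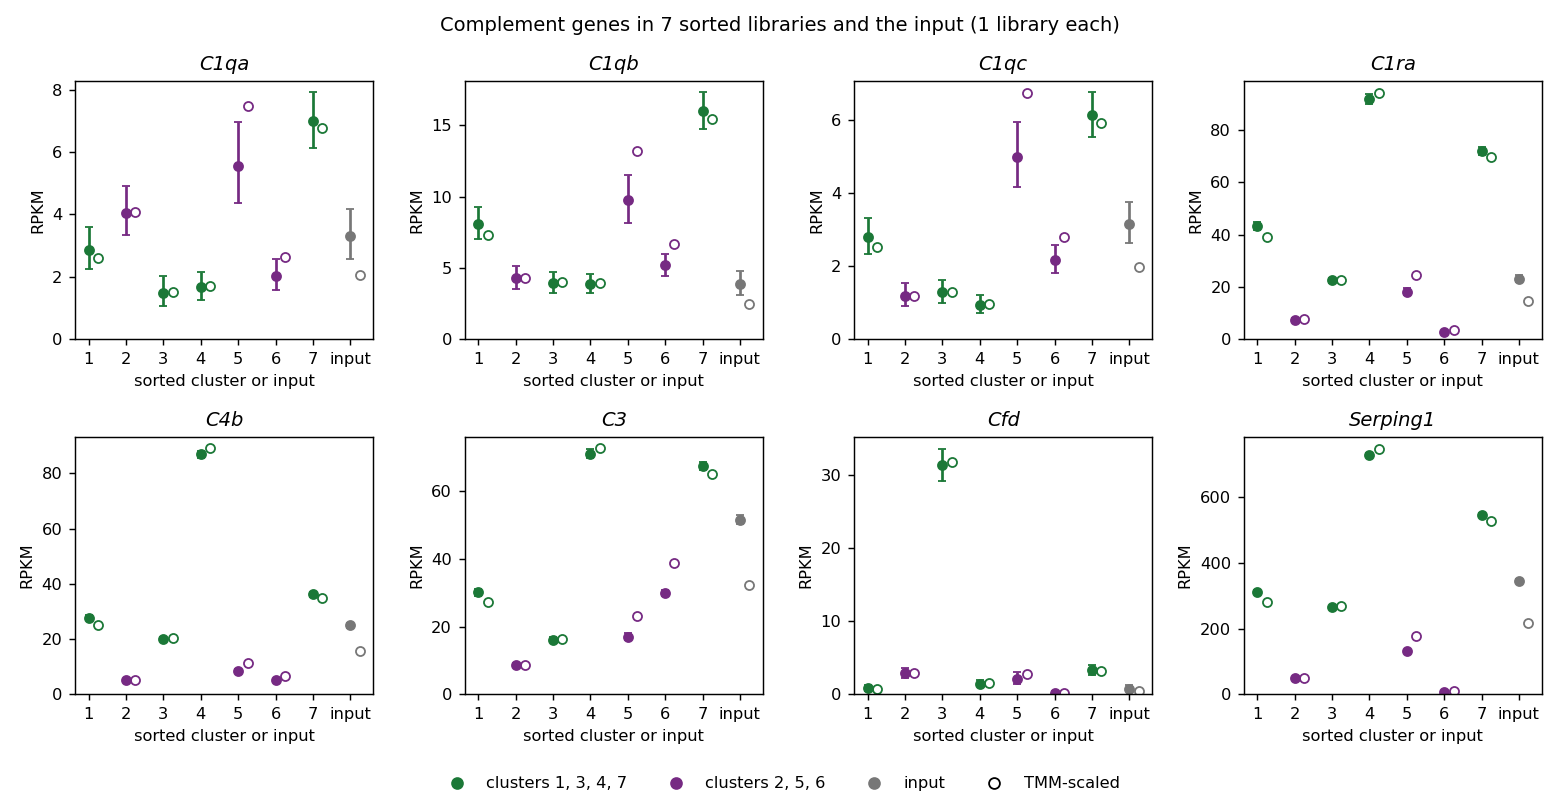
RPKM of the 8 complement genes (y axis, linear from 0, own scale per panel) in the 7 sorted libraries and the input (x axis), 1 library each. Filled points with bars show RPKM with 95% exact Poisson intervals of the counts, and open points show the same values with TMM factors. Serping1, C1ra, C4b and C3 peaked in cluster 4, the C1q chains in cluster 7 or 5 and Cfd in cluster 3.

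Serping1 encodes C1 inhibitor, the serpin that inactivates C1r and C1s, and lies on chromosome 2 of GRCm38 from 84765387 to 84775444 (ENSMUSG00000023224). Its RPKM was 311.7, 50.8, 265.7, 727.5, 130.5, 7.12 and 545.5 in clusters 1 to 7, in that order, and 345.5 in the input. Clusters 4 and 7 were high, and cluster 6 was far below the other sorted libraries. Serping1 was the most abundant of the 8 genes in every library but cluster 6, where C3 was higher. It ranked 59 of all genes in cluster 4, with 55056 counts, but 4388 in cluster 6, where 524 were counted. Cluster 4 had 102.2 times the RPKM of cluster 6 (93.8 to 111.6), the widest range on the log2(RPKM + 1) scale of the 8 genes at 6.49. Without cluster 6 this range was 3.81. With RPKM + 0.1 in place of RPKM + 1, Cfd had the widest range, at 6.68 against 6.66 for Serping1. Each neighbouring pair in the order of the 7 libraries differed beyond counting error.

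C1ra encodes the protease C1r and lies on chromosome 6 from 124512405 to 124523443 (ENSMUSG00000055172). Its RPKM was 43.3, 7.42, 22.4, 91.9, 18.2, 2.63 and 72.0 in clusters 1 to 7 and 23.2 in the input. The order of the libraries was that of Serping1, and each neighbouring pair again differed beyond counting error, although clusters 3 and 5 changed places with other scaling factors, as given further on. Cluster 4 had 35 times the RPKM of cluster 6 (30.8 to 39.9). Without cluster 6 the range fell from 4.68 to 3.46 on the log2(RPKM + 1) scale. C1s1, which encodes the partner protease C1s and lies 6901 bases from C1ra, had RPKM of 101.8, 10.0, 32.0, 125.7, 34.7, 1.67 and 107.0 in clusters 1 to 7 and 44.8 in the input. It was thus high in clusters 4, 7 and 1 and lowest in cluster 6, as C1ra was. C1rb, a near-identical copy of C1ra, had RPKM of 3.06 or less in every library, and reads that fit both copies could have been assigned to either, so the level of C1ra is uncertain to that extent.

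C4b encodes complement C4, the first substrate of C1s, and lies on chromosome 17 from 34728380 to 34743882 (ENSMUSG00000073418). RPKM of C4b was 27.7, 5.31, 20.1, 86.8, 8.40, 5.31 and 36.2 in clusters 1 to 7 and 25.03 in the input. Cluster 4 stood above cluster 7, and clusters 2 and 6 were not apart beyond counting error, with a ratio of 1.00 (0.909 to 1.10). With TMM factors cluster 6 was at 6.85 and cluster 2 at 5.33. Cluster 4 had 16.4 times the RPKM of cluster 2 (15.2 to 17.6). Without cluster 4 the range fell from 3.80 to 2.56 on the log2(RPKM + 1) scale. The related gene C4a, 65209 bases away, had RPKM of 0.767 or less in the sorted libraries and 0.440 in the input, with the same caution on shared reads.

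C3 encodes the protein on which all pathways converge, and lies on chromosome 17 from 57203970 to 57228136 (ENSMUSG00000024164). Its RPKM was 30.2, 8.74, 16.2, 71.2, 17.1, 30.0 and 67.6 in clusters 1 to 7 and 51.7 in the input. Clusters 4 and 7 were again the highest, with a ratio of 1.05 between them (1.03 to 1.08). Unlike the other 3 genes, C3 was not low in cluster 6, which did not differ from cluster 1 beyond counting error, nor did cluster 5 from cluster 3. With TMM factors cluster 6 was at 38.7 and cluster 1 at 27.3, and cluster 5 at 23.1 and cluster 3 at 16.5. Cluster 4 had 8.15 times the RPKM of cluster 2 (7.67 to 8.67). Without cluster 2 the range fell from 2.89 to 2.07 on the log2(RPKM + 1) scale.

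These 4 of the 8 genes were highest in cluster 4, against 8.95% of all genes tested. Serping1 and C1ra, and of the other members Cfd, were lowest in cluster 6, against 25.5%, while C4b and C3 were lowest in cluster 2. Over the 7 sorted libraries the Pearson r of log2(RPKM + 1) was 0.974 for C1ra with Serping1, 0.931 for C4b with C1ra and 0.874 for C4b with Serping1. C3 had an r of 0.776 with C4b, 0.652 with C1ra and 0.481 with Serping1. These are descriptions over 7 libraries, and genes of a library share its depth and composition.

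Promoters of C1ra and C3 are shown because these genes were highest in the same library and next highest in the same library, and because both hold 3 places that match a C/EBP motif. The sequences are those of RefSeq on GRCm38.p6, from 250 bases before to 50 bases after the start site in RefSeq, and 5 of the 8 genes matched the promoter table (C3, Cfd, C1ra, C1qb and C1qc). C1ra lies on the plus strand at chr6:124512371-124512670 and C3 on the minus strand at chr17:57228087-57228386. Capitals mark each match to 1 of 6 motifs searched on both strands, namely C/EBP (TTNNGNAA), PU.1 (GAGGAA), GAS (TTCNNNGAA), ISRE (GAAANNGAA), NF-kB (GGANNTTCC) and the TATA box (TATAAA).
C1ra: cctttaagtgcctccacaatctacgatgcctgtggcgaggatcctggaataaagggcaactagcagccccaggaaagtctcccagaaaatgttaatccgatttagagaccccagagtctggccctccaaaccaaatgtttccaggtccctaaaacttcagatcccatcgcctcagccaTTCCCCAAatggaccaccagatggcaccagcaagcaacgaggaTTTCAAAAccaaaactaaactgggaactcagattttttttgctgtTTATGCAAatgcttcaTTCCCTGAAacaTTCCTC
C3: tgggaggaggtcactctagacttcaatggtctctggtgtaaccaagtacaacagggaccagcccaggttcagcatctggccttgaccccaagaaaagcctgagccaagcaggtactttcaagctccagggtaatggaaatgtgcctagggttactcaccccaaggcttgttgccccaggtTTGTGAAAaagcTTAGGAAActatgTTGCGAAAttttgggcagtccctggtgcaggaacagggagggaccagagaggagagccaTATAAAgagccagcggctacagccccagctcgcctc
In C1ra the C/EBP matches began at bases 179, 222 and 267 of the window, the GAS match at 283 and the PU.1 match at 295. In C3 they began at 181, 193 and 206, where the last matched on both strands. The match to the letters of the TATA box began at 265, which lies after the start site. The annotations differ for C1ra, whose RefSeq start lies 216 bases inside the gene as deposited, so that 266 of the 300 bases and all 5 matches lie within the deposited gene. For C3 both annotations give the same start. No match overlapped with that of another motif. At least 1 C/EBP match was found in 40.7% of the 32851 promoters of 300 bases in the table, and at least 3 places in 3.60%. The GAS motif was in 8.30% of the promoters, PU.1 in 28.3% and the TATA box in 13.6%. The ISRE, in 8.56% of promoters, and the NF-kB motif, in 4.26%, had no match in the 5 promoters. A match of letters is a description of the sequence and not a bound site.

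Ratios of 2 genes within a library do not depend on the scaling between libraries. The ratio of RPKM of Serping1 to C1ra was 7.2, 6.85, 11.9, 7.91, 7.19, 2.71 and 7.57 in clusters 1 to 7 and 14.9 in the input. In 5 of the 7 sorted libraries the RPKM of the inhibitor gene therefore stood at 6.85 to 7.91 times that of the protease gene. Cluster 3 was above (11.3 to 12.5) and cluster 6 below that range (2.32 to 3.16). Against C1s1, Serping1 had a ratio of 4.27 in cluster 6, within the 3.06 to 8.29 of the other sorted libraries. C1ra to C1s1 lay between 0.425 and 0.739 in 6 sorted libraries and was 1.58 in cluster 6 (1.29 to 1.93), where both genes were at their lowest.

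The ratio of C3 to C4b was 1.09, 1.65, 0.806, 0.820, 2.03, 5.66 and 1.86 in clusters 1 to 7 and 2.07 in the input. Cluster 6 stood apart, as the library that held C3 at the level of cluster 1 with little C4b, C1ra or Serping1.

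**Figure D2:**
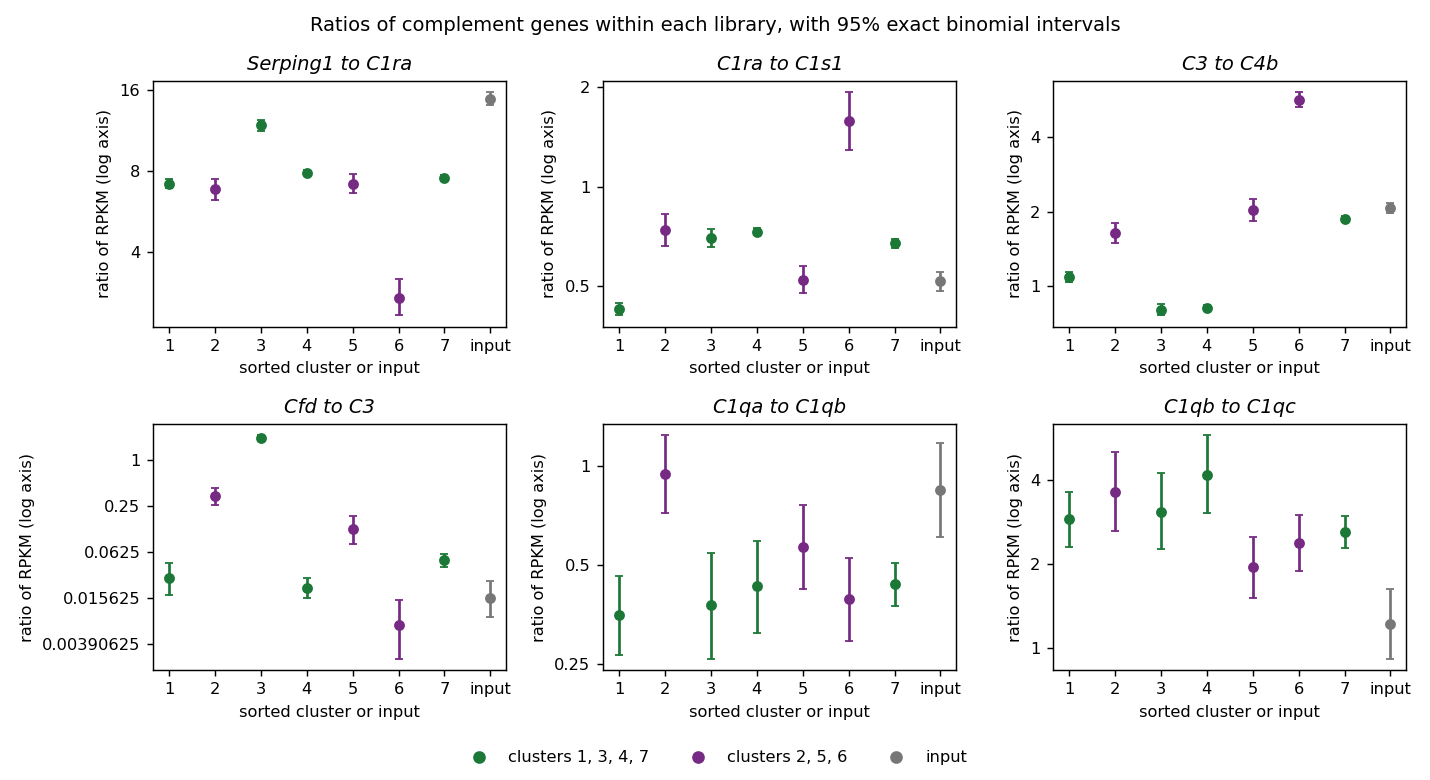
Ratios of RPKM within each library (y axis, log scale) for 6 pairs of complement genes in the 7 sorted libraries and the input (x axis), with 95% exact binomial intervals of the counts. Serping1 to C1ra lay between 6.85 and 7.91 in 5 sorted libraries, and cluster 6 stood apart in Serping1 to C1ra, C1ra to C1s1 and C3 to C4b.

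Cfd encodes factor D, also known as adipsin, the protease that cleaves factor B, and lies on chromosome 10 from 79890853 to 79892656 (ENSMUSG00000061780). RPKM of Cfd was 0.850, 2.91, 31.3, 1.498, 2.11, 0.205 and 3.29 in clusters 1 to 7 and 0.806 in the input. Cluster 3 was high, from 783 counts, and no other library had more than 101 counts. Cluster 3 had 9.51 times the RPKM of cluster 7, the next library (7.72 to 11.8), and 152.5 times that of cluster 6 (69.7 to 416.8), where only 6 counts were found. Clusters 7, 2, 5 and 4 followed each other without a difference beyond counting error between neighbours. Without cluster 3 the range fell from 4.74 to 1.83 on the log2(RPKM + 1) scale. Of all genes tested, 9.85% were highest in cluster 3.

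Adipocyte markers were highest in several libraries. Of 10 markers, 4 were highest in cluster 5 among the sorted libraries, 3 in cluster 4, 2 in cluster 1 and 1, Cidec, in cluster 3 as Cfd was. Over all genes tested these shares were 4.73%, 8.95%, 21.3% and 9.85%, in the same order. The summed RPKM of the list (Adipoq, Pparg, Cebpa, Lpl, Plin1, Plin4, Fabp4, Cidec, Retn and Lep) was 35.5, 21.6, 21.8, 71.6, 34.4, 5.73 and 37.3 in clusters 1 to 7 and 38.1 in the input. Cluster 4, where the sum was highest and was carried by Lpl at 31.5 and Adipoq at 29.6, had an RPKM of Cfd of 1.498. In cluster 3 the most abundant was Fabp4 at 12.9, and the lipid droplet genes Plin1 and Cidec had RPKM of 0.0397 and 0.636. Lep was at 0 in clusters 1, 2, 6 and 7, Cidec in clusters 5, 6 and 7 and Plin1 in cluster 6. Osteoblast markers were high in cluster 3, with a summed RPKM of 31330 over 6 genes led by Bglap, but were higher in cluster 6 at 38351, where Cfd was lowest. The part of either cell type in the level of Cfd was not tested. The other genes of the alternative pathway did not follow Cfd. Cfb, its substrate, had RPKM of 20.2 in cluster 4 and 2.25 in cluster 3, and C3 was at 16.2 in cluster 3, so that Cfd had 1.93 times the RPKM of C3 in cluster 3 (1.77 to 2.09) and 0.333 times or less in each other library.

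C1qa, C1qb and C1qc encode the A, B and C chains of C1q, which are joined in 1 protein. The 3 genes lie side by side on the minus strand of chromosome 4, C1qb from 136880129 to 136886187 (ENSMUSG00000036905), C1qc from 136889804 to 136893065 (ENSMUSG00000036896) and C1qa from 136895917 to 136898803 (ENSMUSG00000036887), with 3616 and 2851 bases between them. RPKM of C1qb was 8.09, 4.28, 3.93, 3.84, 9.74, 5.17 and 16.0 in clusters 1 to 7 and 3.87 in the input. RPKM of C1qa was 2.86, 4.06, 1.49, 1.65, 5.54, 2.03 and 7.001 in clusters 1 to 7 and 3.29 in the input. RPKM of C1qc was 2.80, 1.18, 1.28, 0.923, 5.004, 2.17 and 6.14 in clusters 1 to 7 and 3.16 in the input. Clusters 7 and 5 were the highest for each chain, and clusters 3 and 4 were low for each. For C1qa these 2 highest libraries were not apart beyond counting error (ratio 1.26, 0.969 to 1.66). Of all genes tested, 25.3% were highest in cluster 7.

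Counts of the C1q chains were low, between 42 and 579, and the ranges were the narrowest of the 8 genes. Cluster 7 had 4.70 times the RPKM of cluster 3 for C1qa (3.37 to 6.69), 4.17 times that of cluster 4 for C1qb (3.45 to 5.06) and 6.65 times that of cluster 4 for C1qc (5.04 to 8.92). Without cluster 7 the range of C1qb fell from 1.81 to 1.15 on the log2(RPKM + 1) scale. The order of the highest libraries depended on the scaling. In cluster 5, 34.8% of counts fell on 3 loci, Rn18s-rs5, Lars2 and mmu-mir-689-2, against 0.274% in cluster 7. TMM factors raised the values of cluster 5 by 0.44 and of cluster 6 by 0.37 and lowered those of the input by 0.68 on the log2 scale. With TMM factors C1qa was 7.496 in cluster 5 and 6.77 in cluster 7, and C1qc was 6.76 and 5.93, whereas C1qb stayed highest in cluster 7 at 15.5 against 13.2 in cluster 5.

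The chains moved together in most libraries. Over the 7 sorted libraries r was 0.969 for C1qb with C1qc, 0.836 for C1qa with C1qb and 0.810 for C1qa with C1qc. The ratio of C1qa to C1qb was 0.354, 0.949, 0.379, 0.431, 0.569, 0.394 and 0.437 in clusters 1 to 7 and 0.849 in the input. Cluster 2 stood above all sorted libraries but cluster 5 beyond the intervals (0.723 to 1.24 in cluster 2, 0.423 to 0.761 in cluster 5). Against C1qc, C1qa had a ratio of 3.43 in cluster 2 (2.47 to 4.80) and at most 1.79 in each other library. C1qb to C1qc was 1.23 in the input (0.919 to 1.63), under the 1.95 to 4.16 of the sorted libraries. The interval of cluster 5, the lowest of these (1.51 to 2.50), overlapped with that of the input.

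Promoters of the neighbours C1qb and C1qc are shown because these chains moved together most closely, with the same motifs in capitals. C1qb lies at chr4:136886151-136886450 and C1qc at chr4:136892865-136893164, both on the minus strand of GRCm38.p6 in RefSeq.
C1qb: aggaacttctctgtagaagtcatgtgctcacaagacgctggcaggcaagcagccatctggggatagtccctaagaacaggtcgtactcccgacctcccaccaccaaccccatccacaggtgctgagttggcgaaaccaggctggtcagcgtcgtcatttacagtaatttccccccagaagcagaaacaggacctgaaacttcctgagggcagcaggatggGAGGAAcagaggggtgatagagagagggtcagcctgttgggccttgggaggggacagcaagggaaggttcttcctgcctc
C1qc: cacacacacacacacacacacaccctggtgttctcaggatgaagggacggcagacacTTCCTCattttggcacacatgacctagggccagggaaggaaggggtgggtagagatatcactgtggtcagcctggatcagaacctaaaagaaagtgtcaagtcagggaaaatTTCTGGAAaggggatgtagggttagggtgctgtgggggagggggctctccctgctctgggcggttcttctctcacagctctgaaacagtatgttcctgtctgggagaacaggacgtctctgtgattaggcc
Each held 1 match to PU.1, at base 221 in C1qb and at base 58 in C1qc, where it lies on the other strand, and C1qc also held a C/EBP match at base 170. The RefSeq start of C1qb lies 13 bases outside the deposited gene and that of C1qc 151 bases inside it, where the C/EBP match but not the PU.1 match falls within the deposited gene. In the promoter of Cfd none of the 6 motifs was found, as in 32.2% of all promoters in the table.

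With total counts the summed markers of macrophages were highest in the same sorted library as the C1q chains. The summed RPKM of 12 macrophage markers was 19.0, 19.5, 16.1, 34.5, 23.7, 35.4 and 69.1 in clusters 1 to 7 and 104.8 in the input. Cd68 was the most abundant in every library, at 32.4 in cluster 7. Adgre1, which encodes the macrophage protein F4/80, had RPKM of 4.53 in cluster 7 and 1.78 or less in the other sorted libraries. Marco was at 0 in clusters 2, 3 and 4. Of the 12 markers, 6 were highest in cluster 7 among the sorted libraries, 5 in cluster 5 (Mrc1, Siglec1, Timd4, Spic and Marco) and 1 in cluster 6. Over all genes tested these shares were 25.3%, 4.73% and 7.10%. The sum of the list and C1q parted in other libraries. The input had the highest sum of the markers (with TMM factors 65.6, against 66.8 in cluster 7). Compared with the input, C1qb was 4.13 times as high in cluster 7 (3.29 to 5.25), C1qa 2.13 times and C1qc 1.94 times. Cluster 4 had a higher sum of the markers than cluster 5 (with TMM factors 35.4 against 32.1) but less of each chain. Only Cd68, Csf1r, Mertk and Slc40a1 were higher in cluster 4 than in cluster 5. The other markers of the list were higher in cluster 5, as each chain was. Summed leukocyte markers (373.3, led by Coro1a) and B cell markers (95.8, led by Cd79a) were also highest in cluster 7 among the sorted libraries. Summed neutrophil markers were so with total counts (28769), but with TMM factors their sum was higher in cluster 5 (34479 against 27802). Of the 8 neutrophil markers, 5 were highest in cluster 7 among the sorted libraries with total counts and 3 in cluster 5. Cluster 5 was the next highest library for each chain with total counts and the highest for C1qa and C1qc with TMM factors. All 6 erythroid markers were highest in cluster 5, against 4.73% of all genes tested. Their summed RPKM was 68504 in cluster 5, led by Hba-a1, against 14562 or less in the other sorted libraries, 7411 in cluster 7 and 689.3 in the input, and none of the 6 was at 0. The part of these cells in the levels of C1q was not tested.

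**Figure D3:**
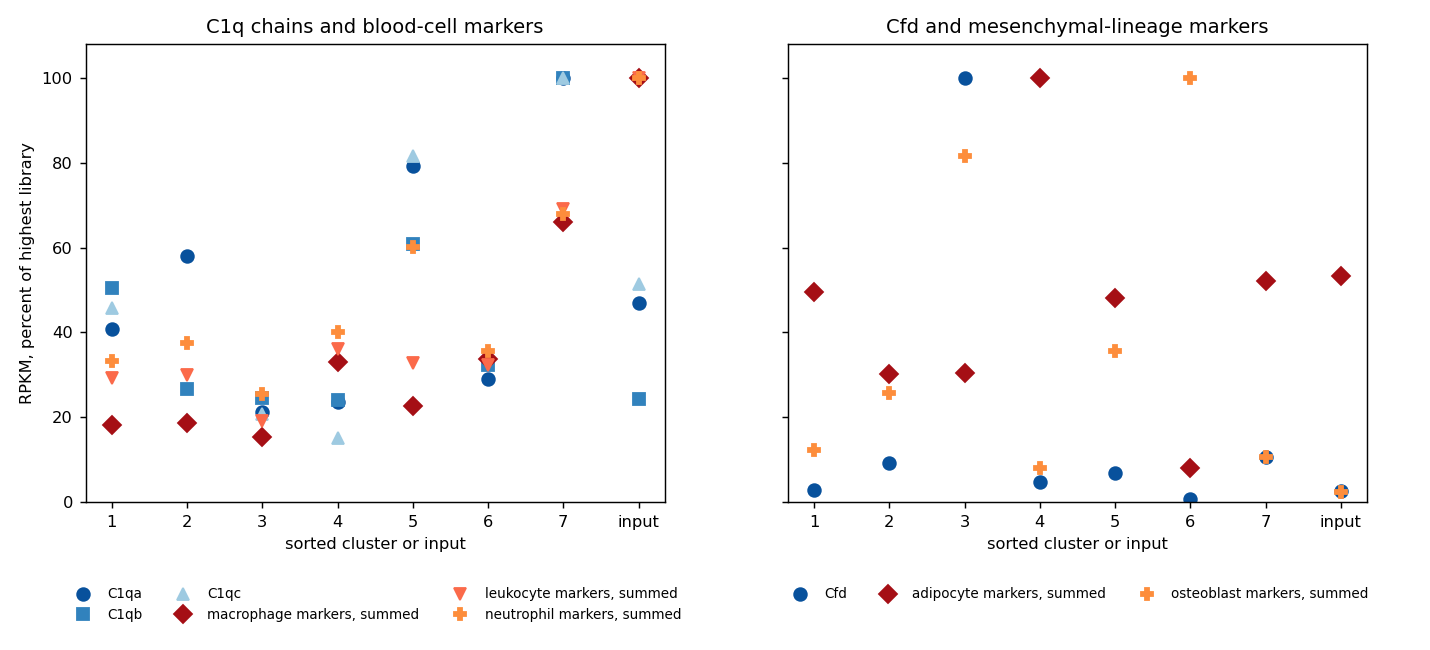
RPKM in each of the 7 sorted libraries and the input (x axis) as percent of the highest library (y axis), for the C1q chains with summed macrophage, leukocyte and neutrophil markers (left) and for Cfd with summed adipocyte and osteoblast markers (right), 1 library each. With total counts the C1q chains were highest in cluster 7 and the blood-cell markers in the input (with TMM factors C1qa, C1qc and the neutrophil markers in cluster 5, and the macrophage and leukocyte markers in cluster 7), and Cfd was highest in cluster 3, adipocyte markers in cluster 4 and osteoblast markers in cluster 6.

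The study divided the clusters by open chromatin into clusters 1, 3, 4 and 7 and clusters 2, 5 and 6. The paper also reports a similar outcome from clustering its RNA-seq data of the sorted clusters. C4b, C1ra and Serping1 were higher in every library of the first group than in every library of the second, 3 of the 8 genes against 20.4% of all genes tested, and none was lower, against 0.51%. With TMM factors these shares of all genes were 9.42% and 2.84%. Mean log2(RPKM + 1) of Serping1 was 8.74 ± 0.68 (SD, n = 4) in the first group and 5.25 ± 2.05 (n = 3) in the second. C1ra had means of 5.69 ± 0.88 and 3.06 ± 1.20, and C4b of 5.23 ± 0.88 and 2.85 ± 0.33. For each of these 3 genes the two-sided exact permutation test gave p = 0.0571, the smallest that the 35 splits of 7 libraries allow, which is 0.273 after Benjamini-Hochberg adjustment over the 12360 genes, so that the design cannot reach a significant call. C3 overlapped between the groups, with a difference of 1.20 (exact permutation p = 0.229), since clusters 6 and 5 were above cluster 3. Without cluster 3 its groups did not overlap with total counts, but by a ratio of cluster 1 to cluster 6 of 1.00 (0.962 to 1.05), within counting error, and with TMM factors cluster 6 (38.7) remained above cluster 1 (27.3). Cfd differed by 1.04 (exact permutation p = 0.514), with cluster 3 as its 1 high library, and the C1q chains by -0.30, 0.15 and -0.07 for C1qa, C1qb and C1qc (exact permutation p = 0.629, 0.914 and 1). The separation of C1ra depended on the scaling, because with TMM factors its value was 24.6 in cluster 5 and 22.8 in cluster 3, and 2 genes then remained.

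Against the input, none of the 8 genes was higher in all 7 sorted libraries, where 4.24% of the 19088 genes tested were, and none was lower in all 7, where 59.8% were. With TMM factors the shares were 24.5% and 29.6%. In cluster 4, C1ra had 3.97 times (3.75 to 4.20), C4b 3.47 times (3.33 to 3.61), Serping1 2.11 times (2.07 to 2.14) and C3 1.38 times (1.33 to 1.42) the RPKM of the input. In cluster 6 the same ratios were 0.113 for C1ra, 0.212 for C4b, 0.0206 for Serping1 and 0.581 for C3. With TMM factors C3 in cluster 6 was above the input (38.7 against 32.4). Cluster 3 had 38.8 times the Cfd of the input (23.4 to 69.7), which rested on 15 counts in the input. C1qb was below the input only in cluster 4, at a ratio of 0.991 (0.750 to 1.32), and with TMM factors it was above the input in all 7. TMM factors raised every ratio to the input, by 1.64 times in cluster 4 and 2.06 times in cluster 6. The number of sorted libraries above the input then went from 2 to 4 for Serping1, from 3 to 5 for C1ra, from 3 to 4 for C4b, from 2 to 3 for C3, from 3 to 5 for C1qa and from 2 to 4 for C1qc, and stayed at 6 for Cfd. All 7 ratios share the 1 input library.

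The wider complement list held 49 genes by role, of which 28 passed RPKM above 2 in at least 1 sorted library. All 28 had a range above 2-fold in RPKM + 1 (background 70.6%). However, a gene that passed the filter in 1 library only had to vary to some extent, though not by 2-fold. Over all 49 genes with no filter the median range was 1.57 on the log2(RPKM + 1) scale, against 0.55 over the 36522 genes with a count in a sorted library. In the classical pathway 8 of 10 genes passed. C1ra, C1s1, C2 and C4b were highest in cluster 4, where 8.95% of all genes tested were highest. C1rb was also highest there, but it passed the filter in cluster 4 only and may share reads with C1ra. C2, whose product joins C4 to cleave C3, had RPKM of 4.68, 1.02, 0.715, 12.7, 1.69, 0.130 and 10.6 in clusters 1 to 7 and 1.27 in the input. Cfb, 85 bases from C2 on chromosome 17, was likewise high in clusters 4 and 7 (20.2 and 11.4) and low in cluster 6 (0.358).

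Of the 7 genes of the terminal pathway, which forms the pore, only C7 passed the filter. C7 had RPKM of 11.2, 0.786, 0.245, 24.6 and 1.29 in clusters 1 to 5, 36.3 in cluster 7 and 2.78 in the input. No count of C7 was found in cluster 6, where 3 counts would have been an RPKM of 0.0350. Hc, which encodes C5, C6, C8a, C8b, C8g and C9 had RPKM of 1.37 or less in the sorted libraries. C9 and the factor I gene Cfi, at 3.96 and 2.81 in the input, had at most 0.0866 and 0.183 in the sorted libraries.

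In the lectin pathway, 5 of 8 genes passed. Colec10, a collectin, had 476 counts and RPKM of 3.83 in cluster 3 and at most 19 counts in each other sorted library. Fcnb, a ficolin of myeloid cells, was at 138.5 in the input and at 100.4 in cluster 7, its highest sorted library, but with TMM factors at 86.7 and 97.0, and at 101.5 in cluster 6. Cfp, which encodes properdin, the stabiliser of the alternative pathway, was at 57.5 in the input and 44.1 in cluster 7, and with TMM factors at 36.0 and 42.6. The receptor C5ar1 and the integrin chains Itgb2 and Itgam of complement receptor 3 were also highest in cluster 7 among the sorted libraries, at 61.2, 75.7 and 16.3, and remained so with TMM factors (59.1, 73.1 and 15.7). The summed neutrophil markers were highest in the input and next in cluster 7 (42396 and 28769), but with TMM factors in cluster 5 and next in cluster 7 (34479 and 27802, with 26548 in the input). Taken singly with total counts, 5 of the 8 markers were highest in cluster 7 among the sorted libraries and 3 in cluster 5. Over all genes tested these shares were 25.3% and 4.73%. In cluster 5 Fcnb, Cfp and C5ar1 had values of 65.4, 17.5 and 15.4 with TMM factors, below those of cluster 7. With total counts Ltf, Ngp, Elane, Mpo and Ly6g were also lower in cluster 5 than in cluster 7, but S100a8, S100a9 and Camp were higher. Of the neutrophil markers S100a9 was the most abundant in each library, and none of the 8 markers was at 0. The part of neutrophils in these levels was not tested.

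Among the other regulators, Clu, which encodes the pore inhibitor clusterin, had RPKM of 588.1 in cluster 4, 477.7 in cluster 6 and 73.1 in cluster 5, and with TMM factors 602.9 in cluster 4 and 615.7 in cluster 6. Cd55, a membrane protein that speeds the decay of C3 convertases, had RPKM of 29.3, 4.81, 111.6, 6.47, 2.75, 2.82 and 16.8 in clusters 1 to 7 and 35.6 in the input. Cluster 3 was thus the highest for both Cd55 and Cfd. Cd55 and Cr1l, another membrane regulator, joined C4b, C1ra and Serping1 as genes of the list that were higher in all of clusters 1, 3, 4 and 7 than in clusters 2, 5 and 6, 5 of 49 genes or of the 28 that passed, against 20.4% of all genes tested. With TMM factors 3 genes of the 29 that then passed were left, C4b, Serping1 and Cd55, against 9.42%, and none was lower in all of clusters 1, 3, 4 and 7 with either scaling. With the input included, 32 of the 49 genes passed the RPKM filter, and 30 with TMM factors. Of the 32, none was above the input in all 7 sorted libraries, against 4.24% of all genes tested, and 1 of the 30 was with TMM factors (C1qb), against 24.5%. Below the input in all 7 were 9 of the 32 genes, namely Fcnb, Cfp, C9, Cfi, Cd59b, Cr1l, C5ar1, C5ar2 and Itgb2, against 59.8% of all genes tested, and with TMM factors 2 of the 30, C9 and C5ar1, against 29.6%.

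**Figure D4:**
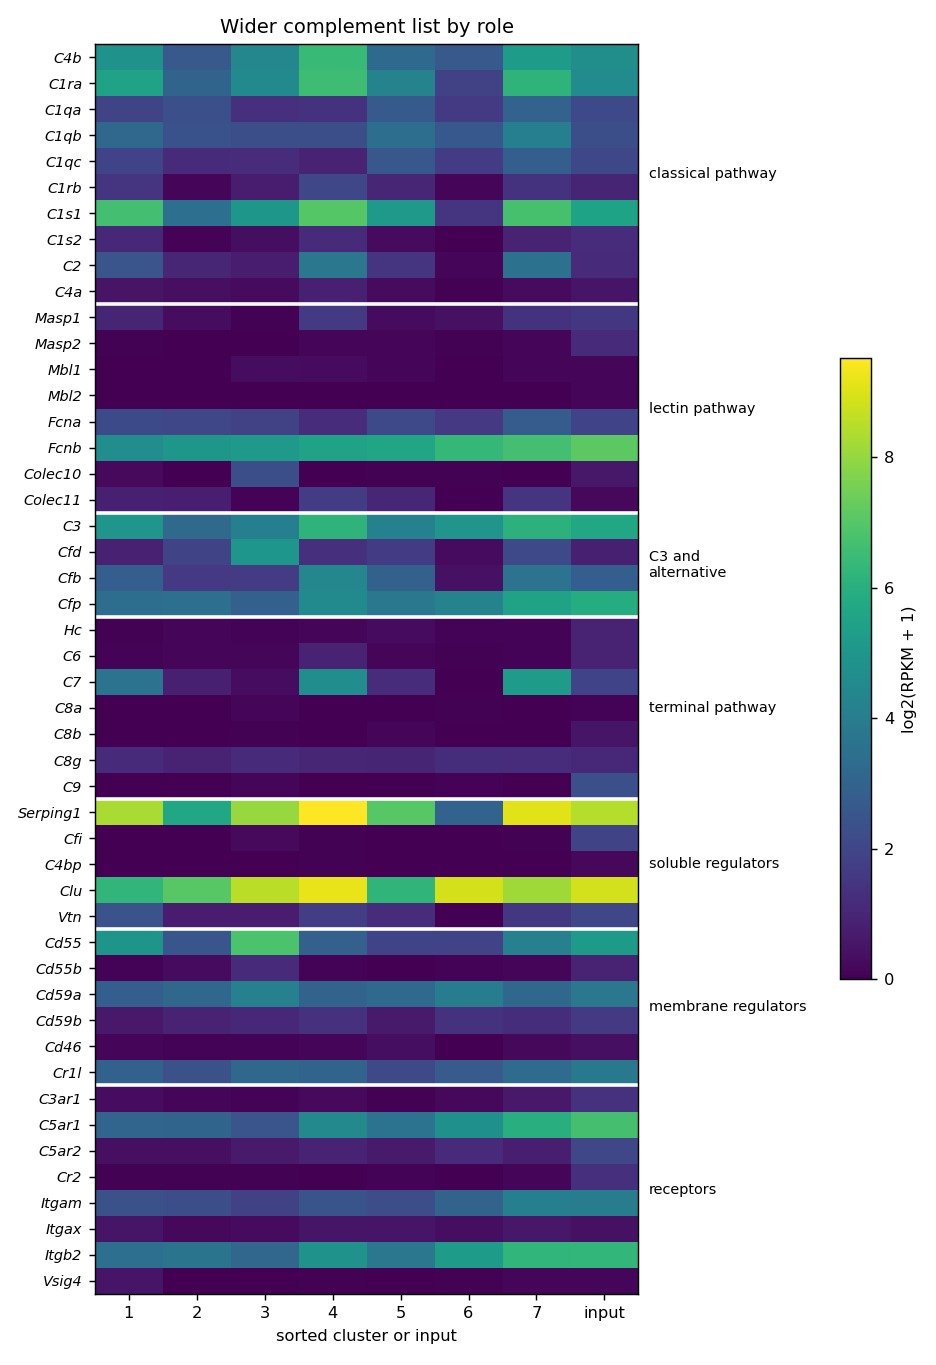
log2(RPKM + 1) (colour) of 48 of the 49 genes of the wider complement list (rows, grouped by role) in the 7 sorted libraries and the input (columns), 1 library each. Serping1 and Clu were the brightest rows, C1s1, C1ra and C4b were brightest in cluster 4, and most terminal pathway genes were near 0.

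The genes most like each member over the 7 sorted libraries were found by the Pearson r of log2(RPKM + 1) among 10955 genes with a symbol and at least 50 counts in their highest library. For C1ra they were Gpc3 (r = 0.997), Eif5 (0.996) and Palld (0.996), and Gpc3, which encodes glypican 3, had RPKM of 81.1 in cluster 4, 57.4 in cluster 7 and 1.12 in cluster 6. For Serping1 they were Fbln5 (0.993), Fgl2 (0.989) and Ifitm3 (0.988), of which Fbln5, which encodes the elastic fibre protein fibulin 5, had 36.6 in cluster 4 and 1.05 in cluster 6. C4b was most like Ubb (0.991), Rnf19b (0.983) and Jdp2 (0.981), and C3 most like Hspa2 (0.984), Aplp1 (0.976) and Dnajb9 (0.972). C1qc was most like Mbp (0.970), C1qb (0.969) and A630001G21Rik (0.960). C1qb was most like A630001G21Rik (0.982), Nt5c3 (0.981) and Svip (0.974). Genes most like C1qa were Arrb2 (0.960) and the neutrophil gene S100a8 (0.943). Cfd had no gene with r of at least 0.95, and its nearest were AA467197 (0.940), Ptger3 (0.924) and Zcchc3 (0.919). By comparison, 87 genes reached 0.95 with C1ra, 54 with Serping1, 41 with C4b, 15 with C3, 5 with C1qb, 3 with C1qc and 1 with C1qa. These values rest on 7 points that share their libraries and are given as a description.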

How the data were processed

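For the 7 sorted libraries and the input, the authors deposited unnormalised counts of reads on Ensembl genes, with exon positions and exon length. Per the methods, reads went through quality trimming, alignment by TopHat2 to mm9 within Partek Flow 2.2 and quantification as RPKM, whereas the deposited coordinates are those of GRCm38. The counting tool and the use of strand are not given in the sources used here. The labels name 1 ug of total RNA and a TruSeq kit, and the paper a smaller input with polyA selection.

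RPKM was computed from the deposited counts, the total count and the exon length, and used as log2(RPKM + 1). The thresholds of RPKM above 2 and 2-fold are those of the methods. With 1 library per population no count test was made, and edgeR 4.0.16 and DESeq2 1.42.0 gave scaling factors only. Genes absent under their current symbol were matched by RefSeq synonym or GRCm38 position (8 genes). Ratios have exact binomial intervals, shares Wilson intervals and levels exact Poisson intervals. The genes named are the 8 members, those of the complement and marker lists, and per member the 3 genes of highest r. Members and lists were chosen with earlier results of these data known, and 2 ratios (C1ra to C1s1 and C1qb to C1qc) were added later. Results of 2 genes are not reported here, although counts over the lists include them. The promoter motifs were chosen after the expression values were seen, and the letters of the ISRE and NF-kB motifs were shortened after longer forms had given no match in the members' promoters. The calculations were tested on simulated counts. Alternatives were TMM factors, DESeq2 size factors, 0.1 as the pseudocount, RPKM above 2 in all libraries, no RPKM filter, equal depth, totals without the 3 dominant loci or without mitochondrial and haemoglobin genes, near-identical copies summed, and omission of each sorted library, of which that of cluster 5 was planned and the others were added after the data were seen. Other software comprised R 4.3.3 and, under Python 3.11.15, scipy 1.17.1, pandas 2.3.3, numpy 2.4.6 and matplotlib 3.10.9.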

Additional observations from a re-analysis of the deposited data

Results flagged for a closer look

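Cfd in cluster 3 lay far from the other sorted libraries. On the log2(RPKM + 1) scale the gap between cluster 3 and the next library was 0.614 of the range of all 7 libraries, above the 95% critical value of Dixon's ratio for 7 values. All 8 genes were examined in this way, and chance flags about 1 in 20 such groups. The range of Cfd was 4.74 with RPKM + 1 and 6.68 with RPKM + 0.1, so that a ratio taken over this range depends on the value added. Dixon's ratio was computed with RPKM + 1 only, and the flag may not hold with RPKM + 0.1.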

How the results depend on the processing

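Each population had 1 library, so the spread between sorts was not measured. No paired analysis was possible because the groups held 1 library each and share no pairs of samples. The number of the 8 genes above the input in all 7 sorted libraries was 0 and became 1 with TMM factors, DESeq2 size factors and equal depth (C1qb in each), and was 0 to 1 when a sorted library was left out (C1qb without cluster 4, Cfd without cluster 6). With TMM factors 24.5% of all genes were so called, against 4.24%. With RPKM above 2 required in all libraries, which tests fewer genes, 5 of the 8 genes and 15 of the wider list passed, and all of these had a range above 2-fold, in place of 8 and 28, against 68.8% of the 7174 genes that passed. Without 1 sorted library at a time the 8 genes stayed at 8 and the wider list at 25 to 28. The number of genes whose open-chromatin groups did not overlap was 3, was 3 to 4 without 1 library (C3 added without cluster 3, by a difference within counting error) and was 2 with TMM factors, with DESeq2 size factors and without the 3 dominant loci, where C1ra was lost and 12.3%, 12.1% and 13.3% of all genes were called in either direction. With C1ra and C1rb summed, the ratio of Serping1 to the pair was 6.92 in cluster 1 and 7.66 in cluster 4. C1qa and C1qc were highest in cluster 5 in place of cluster 7 with TMM factors, DESeq2 size factors and without the 3 loci. Counts of 42 to 579 limit the order of the C1q chains, and 6 to 101 that of Cfd outside cluster 3.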
